A study of Capsella grandiflora and Capsella rubella with 18 samples.

Results

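Gene expression was compared among the 10 leaf libraries of Capsella grandiflora, which are 10 of the 18 libraries of the series. A gene was included where its FPKM (mapped fragments scaled for transcript length and for the fragments of the whole library) was at least 1 in at least 4 of the 10 libraries, which 14823 of the 19350 gene rows (76.6%) met. Each library is polyadenylated RNA from maturing leaves of a greenhouse-grown plant, sequenced as paired-end Illumina reads. By the labels, 9 plants came from seed collected in the wild in Greece: 3 from Mikro Papingo (Cg_leaf 1, 5 and 10), and 1 each from Mesolongion (Cg_leaf 2), Kalenzi (Cg_leaf 3), Koutselio (Cg_leaf 4), Pili (Cg_leaf 7), Troumpeta (Cg_leaf 8) and Ano Pedina (Cg_leaf 9). Cg_leaf 6 is the F1 of a cross of Corfu plants. The labels give no treatment, plant age or harvest time, and each plant has 1 library, so differences between plants cannot be told apart from differences between leaves, harvests or library preparations.

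C. grandiflora is the outcrossing, self-incompatible sister of the selfing C. rubella, and unrelated individuals of an outcrosser differ at many genes. A leaf extract mixes photosynthetic mesophyll with epidermal, guard and vascular cells, and in most plants a small set of photosynthesis transcripts makes up much of its mRNA. Leaf transcript levels also follow time of day, light, leaf age, temperature, wounding and attack by herbivores or pathogens. FPKM is relative within a library, so a larger share taken by a few genes lowers the values of all others. In such bulk tissue, fewer cells of a type and less RNA per cell cannot be told apart. The table gives gene IDs without names, so no pathway list and no leaf marker could be looked up, and genes are described by ID, position on the CR v1 JGI build, level and pattern.

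The FPKM values of a library summed to between 1307610 (Cg_leaf 5) and 1858150 (Cg_leaf 7). Read totals were not used here. The spacing of values below 0.3 FPKM gave depths relative to Cg_leaf 7 of 0.493 in Cg_leaf 9, 0.745 in Cg_leaf 3 and 0.869 to 1.01 in the other 7 libraries. This holds only where nothing but the read total scaled the deposited FPKM. The number of rows listed at 0 ran from 2390 in Cg_leaf 7 to 2972 in Cg_leaf 9. Of the 14823 genes, 12653 (85.4%) reached 1 FPKM in all 10 libraries. At the threshold, 323 genes reached it in exactly 4 libraries, with a median highest value of 3.39 FPKM, and 316 rows left out reached it in exactly 3, with a median highest value of 2.93 FPKM.

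Most leaf genes varied moderately among plants, and a minority varied by large amounts. The SD of log2(FPKM + 1) over the 10 libraries had a median of 0.47 and quartiles of 0.34 and 0.68. The median gene differed by 1.48 on the log2 scale between its highest and its lowest library. The distance between the highest and the lowest library was at least 1 on the log2 scale, a 2-fold difference, in 11769 genes (79.4%), at least 2 in 4389 (29.6%) and at least 4, a 16-fold difference, in 602 (4.06%). An SD above 1 was found in 1388 genes (9.36%) and an SD above 2 in 100 (0.675%). The variance was unevenly spread over genes: the 148 most variable genes, 1% of those included, held 12.4% of the summed variance, and the 1482 most variable held 44.8%.

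Spread was larger at both ends of the range of levels than in its middle. With the genes cut into 10 bins of nearly equal size by mean FPKM, the median SD was 0.54 in the lowest bin, 0.58 in the next, 0.41 in bin 6 (17.4 to 24.5 FPKM) and 0.49 in the highest bin (above 120.5 FPKM). The share of genes with an SD above 1 followed a like course above bin 1, with 6.74% in bin 1, 13.1% and 13.2% in bins 2 and 3, 6.95% in bin 7 and 12.6% in the highest. Among the most abundant genes of the leaf, large differences between plants were thus as frequent as among genes of 2.67 to 12.6 FPKM (10.6% to 13.2% per bin). Genes that reached 1 FPKM in 4 to 9 libraries had a median SD of 0.72 against 0.44 for those that reached it in all 10. The inclusion rule makes the former vary, so this is not a result.

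**Figure D1:**
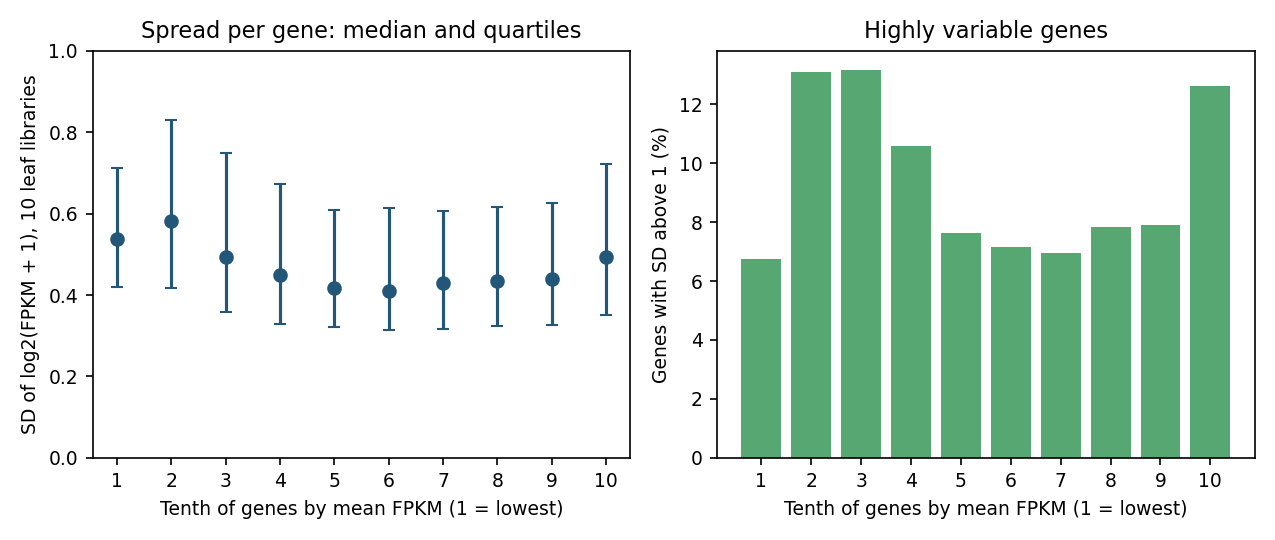
Genes are ordered by mean FPKM over the 10 leaf libraries and cut into 10 bins. Left, the median (point) and quartiles (bars) of the SD of log2(FPKM + 1) per gene; right, the percentage of genes with an SD above 1. The median SD is lowest, at 0.41, in bin 6, and genes with an SD above 1 are most frequent in bins 2, 3 and 10.

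The steadiest genes with a mean of at least 5 FPKM differed little between plants. Carubv10016316m (scaffold 3, 2603230 to 2608945) stood at 107.8 FPKM in its lowest library, at a median of 115 and at 127 in its highest, an SD of 0.09 on the log2 scale. Carubv10000888m (scaffold 6, 15204403 to 15209459) ranged from 47.2 to 55.6 FPKM around a median of 51.9, with an SD of 0.10. Both rows share their coordinates with another row, and the authors' counting may have split one locus over several rows. Carubv10017257m, Carubv10001779m and Carubv10012679m, which share coordinates with no other row, ranged from 27.9 to 34.8, from 101.8 to 128 and from 164.5 to 213 FPKM. After the libraries were scaled to a common upper quartile the SDs of all 5 lay between 0.14 and 0.16. As deposited they were 0.09 to 0.11. These genes were picked for the smallest SDs as deposited, so a rise on another scale can follow from the choice. Over all genes the median SD was 0.468 as deposited and 0.452 after that scaling.

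The most variable genes went from undetected or nearly so to some of the abundant transcripts of the leaf. Carubv10010755m (scaffold 1, 10360579 to 10361669) had an SD of 4.90 on the log2 scale. It was listed at 0 in Cg_leaf 3, 7 and 8 and reached 3432 FPKM in Cg_leaf 2 and 5998 in Cg_leaf 6, around a median of 89.9. Carubv10002340m (scaffold 6, 11636631 to 11637389) was also highest in Cg_leaf 6, at 1145 FPKM, and was listed at 0 in Cg_leaf 7, 8 and 9, with a median of 42.7 FPKM. A listed 0 in a table without counts can be a failed estimate.

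Carubv10021136m (scaffold 2, 1403080 to 1404123) was never at 0 yet spanned 1.01 FPKM in Cg_leaf 8 to 6892 in Cg_leaf 3, with a median of 191. Cg_leaf 7, at 6593 FPKM, was close to the highest, and the next in order, Cg_leaf 10, stood at 1290. Carubv10002401m (scaffold 6, 8660149 to 8660721) was listed at 0 in Cg_leaf 4 and 6 and lay between 68.5 and 682 FPKM in the other 8 libraries. Carubv10010827m (scaffold 1, 16925264 to 16930255) was listed at 0 in Cg_leaf 2, 4 and 10 and lay between 41.1 and 224 FPKM in the other 7. The values of these last genes fall into libraries at 0 and libraries well above it, with nothing between. Carubv10012706m, on the small scaffold 224, was listed at 0 in Cg_leaf 3, stood at 8.52 FPKM in Cg_leaf 2 and reached 924 in Cg_leaf 9.

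A few genes took a large and unequal share of each library. The most abundant gene held 2.52% to 6.92% of the FPKM sum, the 10 most abundant 12.5% to 27.6% and the 100 most abundant 34.4% to 58.5% (49.4% ± 7.80, SD, n = 10). Cg_leaf 4 was lowest for the last measures, and Cg_leaf 10 highest. The number of genes that together held 50% of the FPKM sum was 296 in Cg_leaf 4, 203 in Cg_leaf 5 and 183 in Cg_leaf 6, but 49 in Cg_leaf 10 and 52 in Cg_leaf 9. The identity of the top genes varied too: 4 different genes were counted as first in some library. In the top 10 of at least 1 library 32 genes appeared, and 2 in the top 10 of all. First place in Cg_leaf 9 was a tie of Carubv10012759m and Carubv10012760m, which are equal in every library, and 1 of them was counted. Both rows entered all the other shares and numbers given here. For the top 100, 50 genes were shared by all libraries out of 177 found in any.

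**Figure D2:**
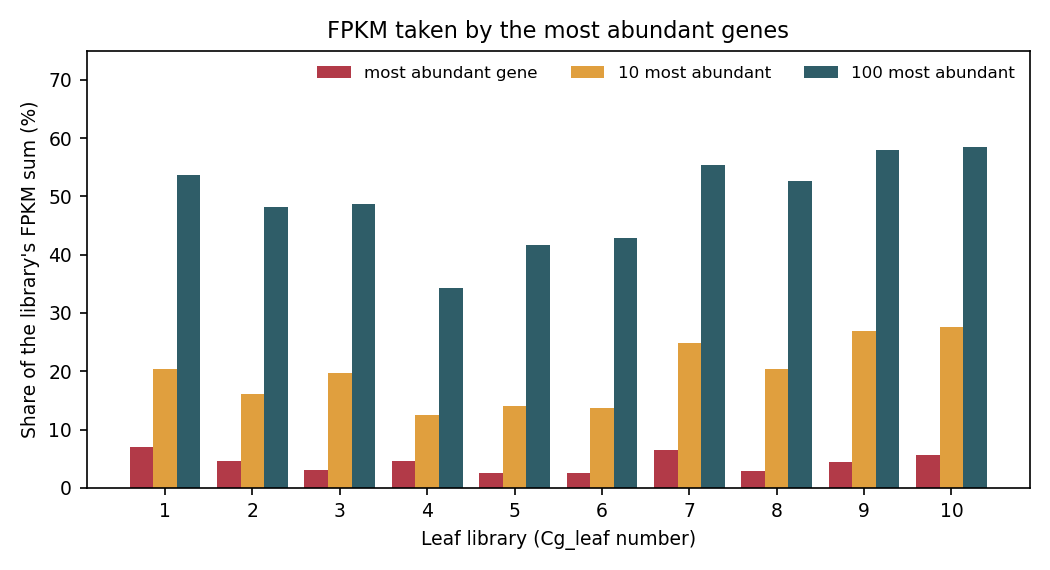
Bars give the share of each leaf library's FPKM sum held by its most abundant gene, its 10 most abundant and its 100 most abundant genes. The 100 most abundant genes hold 34.4% in Cg_leaf 4 and 58.5% in Cg_leaf 10.

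The 2 genes present in every top 10 were comparatively even. Carubv10021016m (scaffold 2, 8345296 to 8347074) ranked first in 6 libraries (Cg_leaf 1 to 6) and had the highest mean, 52924.5 ± 20395.2 FPKM (SD, n = 10). It ranged from 32004 FPKM in Cg_leaf 8 through a median of 49815 to 101201 in Cg_leaf 1. Carubv10021122m (scaffold 2, 13402358 to 13406425) ranged from 14655 FPKM in Cg_leaf 4 to 46818 in Cg_leaf 9, with a median of 31274. Carubv10002373m (scaffold 6, 438681 to 442881) was the steadiest of the 10 genes with the highest means, at 10265 to 21110 FPKM and an SD of 0.31 on the log2 scale. The last 2 share coordinates with another row.

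The other 7 of the 10 genes with the highest means were among the variable ones, with SDs from 1.19 to 2.25 on the log2 scale. They include Carubv10012759m and Carubv10012760m, whose values are equal in every library. Carubv10021234m (scaffold 2, 12113473 to 12114011) went from 1726 FPKM in Cg_leaf 2 through a median of 7792 to 121431 in Cg_leaf 7, a 70.3-fold range. Cg_leaf 7, 8 and 9 stood at 49773 or above and the other 7 libraries at 17703 or below. Carubv10014903m (scaffold 3, 13876467 to 13877802) ranged from 3441 FPKM in Cg_leaf 5 through 17419 to 94726 in Cg_leaf 10, where it ranked first. Carubv10024304m (scaffold 4, 2674276 to 2675495) was likewise highest in Cg_leaf 10, at 60504 FPKM, with a median of 16086, and lowest in Cg_leaf 4, at 1880.

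Several of these abundant variable genes were neighbours and moved together. Consecutive members that did not overlap, each with an SD above 1 and correlated above 0.8 with the next over the 10 libraries, formed 32 runs holding 75 genes, 5.40% of all genes with an SD above 1. Of these runs 25 were pairs and 7 held 3 to 6 genes. The definition was set after the values were seen, so the runs are a description and carry no test. Whether genes of a run are near-identical copies that share reads could not be examined without their sequences.

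The longest run was on scaffold 2, where 6 genes lay between 12108502 and 12123298. They are Carubv10021237m, Carubv10021298m, Carubv10021234m, Carubv10021232m, Carubv10021235m and Carubv10021662m. Together they took 13.8% of the FPKM sum of Cg_leaf 7, 9.58% of Cg_leaf 9, 8.43% of Cg_leaf 8 and 5.05% of Cg_leaf 3, but only 0.911% to 2.30% in the other 6 libraries. The members kept unequal levels: Carubv10021235m ranged from 7881 to 67589 FPKM and Carubv10021298m from 276 to 34847, whereas Carubv10021662m, at the end of the run, ranged from 1.55 to 1286. In 5 of the 6 the 3 highest values were in Cg_leaf 7, 8 and 9, and the exception was Carubv10021235m, where Cg_leaf 3 (47388 FPKM) stood above Cg_leaf 8 (40182).

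A run of 3 genes on scaffold 3 (13872462 to 13880826) had another order of plants. Carubv10014907m, Carubv10014903m and Carubv10014906m together held 10.2% of the FPKM sum of Cg_leaf 10, 5.25% of Cg_leaf 7 and 4.55% of Cg_leaf 8, and 0.475% in Cg_leaf 5, a 27.8-fold range of their summed FPKM. Carubv10014906m alone ranged from 1343 FPKM in Cg_leaf 5 through a median of 12340 to 58225 in Cg_leaf 10.

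The run on the small scaffold 26 (49047 to 83764) held 4 genes, which took 11.5% of the FPKM sum of Cg_leaf 9 and 6.79% of Cg_leaf 3, against 0.435% to 3.11% in the other 8 libraries. Its rows form identical pairs. Carubv10012759m and Carubv10012760m had the same value in every library, from 3529 FPKM in Cg_leaf 10 to 79207 in Cg_leaf 9, and so had Carubv10012761m and Carubv10012757m, from 142.4 to 22727. No other member equalled another in all 10 libraries. Rows that are equal to the last digit are not separate measurements, and their values may count 1 set of reads at both positions.

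**Figure D3:**
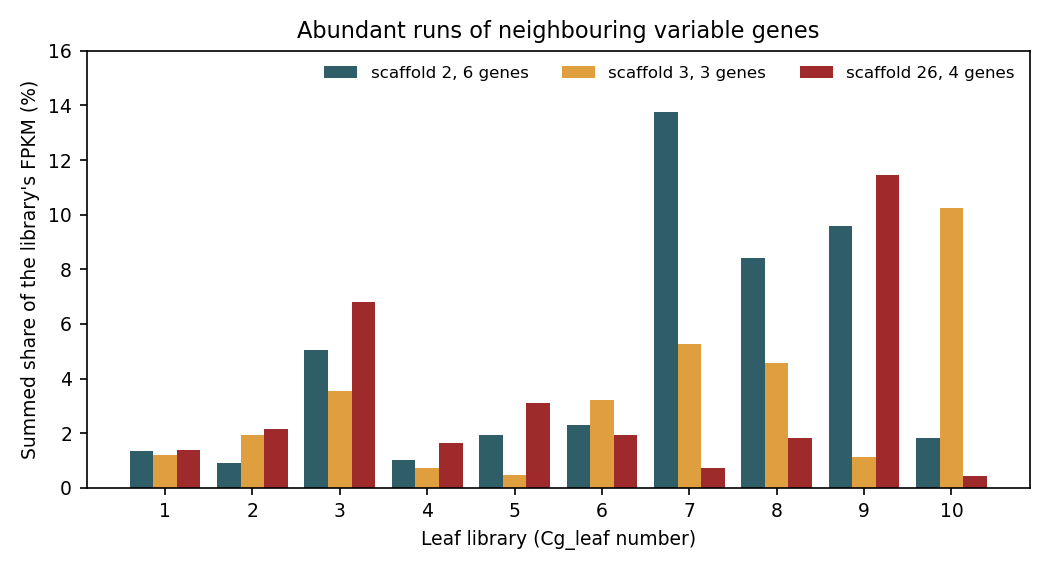
Bars give the summed share of each leaf library's FPKM held by 3 runs of neighbouring genes that vary together. The run on scaffold 2 is highest in Cg_leaf 7 at 13.8%, that on scaffold 3 in Cg_leaf 10 at 10.2% and that on scaffold 26 in Cg_leaf 9 at 11.5%; the rows of the last are identical in pairs.

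The other 4 long runs held genes of lower level that were nearly silent in some plants. On scaffold 8 (2207531 to 2218043), Carubv10027416m, Carubv10027472m and Carubv10027471m reached 117, 1264 and 118 FPKM in Cg_leaf 3, against at most 9.71, 24.8 and 28.5 FPKM in any other library. Also on scaffold 8 (9773083 to 9781091), Carubv10028183m, Carubv10028699m and Carubv10027002m were highest in Cg_leaf 4, at 23.3, 74.1 and 178 FPKM. Carubv10027002m stood at 0.373 to 1.02 FPKM in Cg_leaf 1, 3 and 5 and at 8.24 or above in the others.

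On scaffold 6 (675418 to 683895), Carubv10003475m, Carubv10003650m and Carubv10001442m were all below 2 FPKM in Cg_leaf 3 and 4. Carubv10003475m stood at 0.684 and 0.807 FPKM in those libraries and at 6.94 to 37.3 in the other 8. Carubv10003650m stood at 5.48 to 76.6 FPKM in the other 8, and Carubv10001442m was also listed at 0 in Cg_leaf 8, 9 and 10. A second run on scaffold 6 (14152378 to 14172629) was highest in Cg_leaf 5, where Carubv10000104m reached 43.5 FPKM and Carubv10001036m 42.2. Carubv10000104m was listed at 0 in 5 libraries (Cg_leaf 1, 7, 8, 9 and 10), and only Cg_leaf 3, at 37.3 FPKM, came near the highest.

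Neighbouring genes in general varied together only slightly more than distant ones. The median correlation over the 10 libraries was 0.137 for 13715 pairs of adjacent members that did not overlap, 0.107 for members 2 apart and 0.099 for members 50 apart on the same scaffold. After upper quartile scaling these medians were 0.042, 0.020 and 0.005. Correlations above 0.8 made up 2.88% of adjacent pairs and 1.78% of pairs 50 apart. The pairs share the same 10 libraries and their scale, and the values are a description across genes. Highly variable genes were found on all 8 large scaffolds at similar rates, with an SD above 1 in 8.05% (scaffold 1) to 10.5% (scaffold 2) of members. On the small scaffolds it was 33 of 127 members (26.0%), a share that rests on few genes.

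Across genes all pairs of libraries correlated at 0.819 or above, and Cg_leaf 4 resembled the others least on average. The Pearson correlation of log2(FPKM + 1) over the 14823 genes had a median of 0.913 over the 45 pairs, from 0.819 (Cg_leaf 4 and 8) to 0.955 (Cg_leaf 1 and 10). The mean correlation of a library with the other 9 was 0.904 to 0.922 in 9 libraries and 0.868 in Cg_leaf 4. Pairs with Cg_leaf 4 had a median of 0.874, and pairs without it 0.917. The groups of pairs overlapped. Cg_leaf 4 had 0.915 with Cg_leaf 2 and 0.905 with Cg_leaf 1, and 0.883 or less with the rest. Pairs without it went down to 0.887 (Cg_leaf 2 and 8). The closest pairs were Cg_leaf 1 and 10, both from Mikro Papingo, then Cg_leaf 5 and 6 (0.940) and Cg_leaf 7 and 8 (0.940), which come from different places. The F1 plant, Cg_leaf 6, had a mean correlation of 0.917, within the range of the plants from wild seed.

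**Figure D4:**
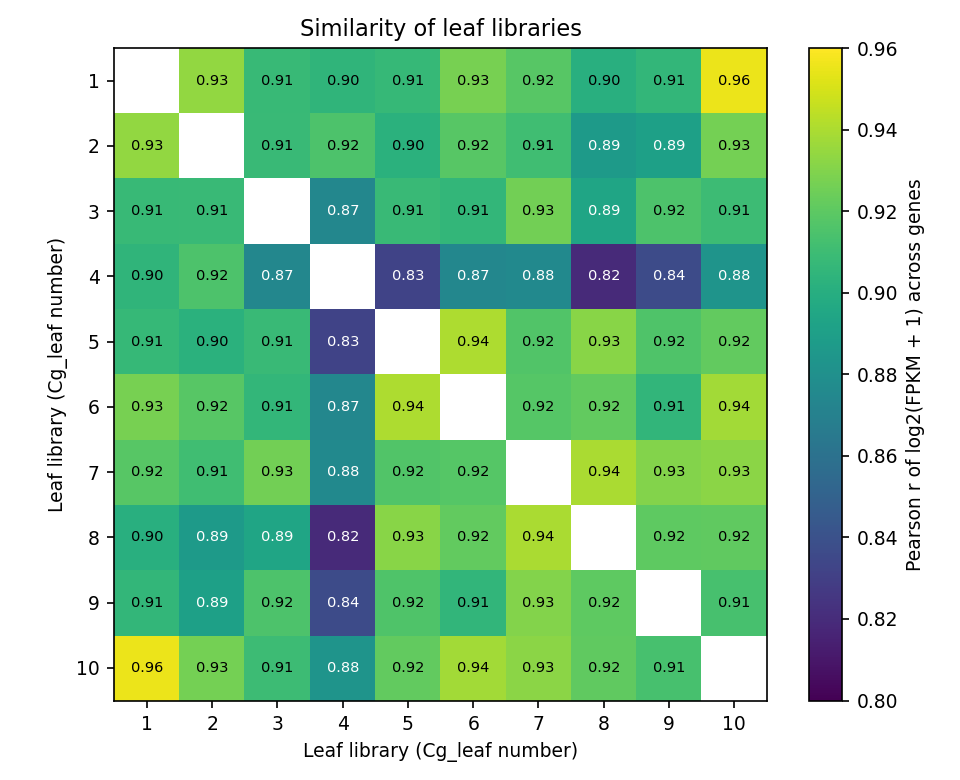
Each cell gives the Pearson correlation of log2(FPKM + 1) across the 14823 genes for a pair of leaf libraries. The row of Cg_leaf 4 is darkest, with a mean of 0.868, and Cg_leaf 1 and 10 are the closest pair at 0.955.

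Cg_leaf 4 also held many genes far above the other plants. Counted against the median of the other 9 libraries, 649 genes were at least 4-fold higher in Cg_leaf 4 (2 on the log2 scale), against 59 to 250 in the other libraries, and 133 were at least 4-fold lower, within the range of 22 to 195 elsewhere. It was the highest library for 3449 of the 14823 genes. After upper quartile scaling 560 genes remained 4-fold higher in Cg_leaf 4, against 81 to 205 in the others. Its share of FPKM in the top 100 genes (34.4%) was also the lowest of the 10 libraries, and a relation between that share and this count was not tested. Its relative depth, 0.947, was within the range of the other libraries.

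At the other end, Cg_leaf 1 was the lowest library for 3296 genes. The median gene stood -0.30 below the median of the other libraries in Cg_leaf 1 and -0.21 below in Cg_leaf 10 on the log2 scale, and between -0.06 and 0.20 in the other 8. Upper quartile scaling brought these shifts to between -0.05 and 0.06. That scaling brings the libraries to a common level, so smaller shifts are largely built into it. The shifts of Cg_leaf 1 and 10 thus depend on the scale used. The FPKM sum without the 100 most abundant genes was also lowest in Cg_leaf 1 (677848) and Cg_leaf 10 (700515). It was nearly as low in Cg_leaf 2 (703064), where the median gene was shifted by -0.06. The part of this sum in the shifts was not tested.

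Variation among the plants was spread over many axes, of which the first separated Cg_leaf 4. Principal components of log2(FPKM + 1) held 28.1%, 17% and 12.9% of the variance, and 10.3% to 4.57% in components 4 to 9. Cg_leaf 4 had a score of 87.8 on component 1 and contributed 47.9% of its sum of squares. Cg_leaf 2 (38.4) and Cg_leaf 1 (27.1) lay on the same side, and Cg_leaf 8 (-54.5), Cg_leaf 5 (-38.6) and Cg_leaf 9 (-36.5) lay opposite. Component 1 was nearly the same after upper quartile scaling (r of the scores 0.9996), and without Cg_leaf 4 the first component held 25.4% of the variance.

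The genes with the strongest weights on component 1 were again variable ones, which the component is built from. On the side of Cg_leaf 4 stood Carubv10010755m and Carubv10002340m, described above, together with Carubv10017634m (scaffold 5, 9967460 to 9969765) and Carubv10010605m (scaffold 1, 8559832 to 8560737). Carubv10017634m measured 2059 FPKM in Cg_leaf 4, 582 in Cg_leaf 2 and 23.5 to 337 in the other 8. Carubv10010605m measured 105 FPKM in Cg_leaf 4 and 37.6 in Cg_leaf 2, and 5.89 or less elsewhere. On the opposite side stood Carubv10021298m and Carubv10021662m of the run on scaffold 2, whose levels in Cg_leaf 2 and 4 were the lowest of all, and Carubv10010827m and Carubv10002401m.

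Component 2 placed Cg_leaf 1 (56.1) and Cg_leaf 10 (50.6) against Cg_leaf 3 (-46.9) and Cg_leaf 4 (-32.7), the first being the libraries with the shifted medians. It depended on scale. After upper quartile scaling the second component held 15.2% and had its largest score in Cg_leaf 3 (51.7), with a correlation to the original scores of -0.845, where the sign is free. Carubv10021209m (scaffold 2, 2321368 to 2322088) weighed on the side of Cg_leaf 1 and 10, with 7071 and 8614 FPKM there, a median of 1170 and 142 in Cg_leaf 3. Carubv10021063m (scaffold 2, 13711878 to 13713177) weighed on the other side, listed at 0 in Cg_leaf 1 and 10, at 0.416 FPKM in Cg_leaf 9 and at 14.2 to 44.3 in the other 7 libraries.

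Component 3 placed Cg_leaf 6 (48.3) and Cg_leaf 5 (39.7) against Cg_leaf 9 (-43.9) and Cg_leaf 3 (-26.7). It depended on scale too, with r = 0.816 between its scores and those of component 3 after upper quartile scaling. Under that scaling Cg_leaf 5 (41.4) and Cg_leaf 6 (34.6) stood against Cg_leaf 1 (-35.5), Cg_leaf 10 (-29.6) and Cg_leaf 9 (-28.9), and Cg_leaf 3 changed side (8.36). Carubv10013912m (scaffold 3, 4851455 to 4853543) weighed most with Cg_leaf 9 and 3. It stood at 1019 FPKM in Cg_leaf 3, 827 in Cg_leaf 7, 607 in Cg_leaf 10 and 344 in Cg_leaf 9, and at 7.76 FPKM in Cg_leaf 6 and 11.1 in Cg_leaf 5. The other 4 libraries lay between, at 26 to 157 FPKM.

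**Figure D5:**
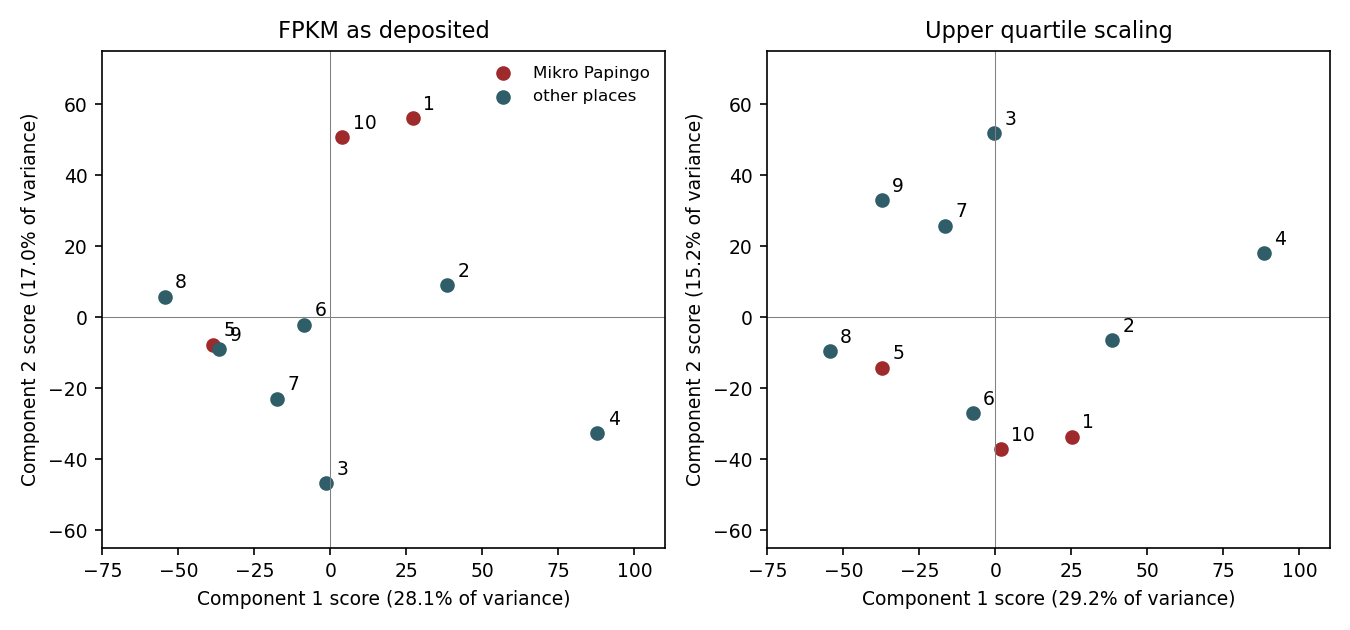
Points are the 10 leaf libraries, numbered and coloured by origin (red, Mikro Papingo; blue, other places), by their scores on components 1 and 2 for FPKM as deposited (left) and after scaling to a common upper quartile (right); the sign of a component is free. Cg_leaf 4 lies apart on component 1 in both (87.8 as deposited), whereas component 2 changes with the scaling.

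The scores on the first 3 components of the FPKM as deposited were compared with 4 measures of the libraries: rows listed at 0, FPKM sum, share in the 10 most abundant genes and relative depth. None of the 12 relations passed an adjusted p of 0.05 (permutation, 100000 resamples, two-sided, Benjamini-Hochberg). At an unadjusted p below 0.05 there were 2, both with component 3. Its scores fell with the share in the top 10, with r = -0.751 (permutation p = 0.0138, adjusted 0.150) and rho = -0.661 (permutation p = 0.0448, adjusted 0.295). They also fell with the FPKM sum, with r = -0.703 (permutation p = 0.025, adjusted 0.150) and rho = -0.648 (permutation p = 0.0492, adjusted 0.295). Without the 2 libraries farthest from the median of the measure, r was -0.875 and -0.590. Without Cg_leaf 4 the share in the top 10 had r = -0.898 with component 3 of the other 9 (permutation p = 0.00136, adjusted 0.0163) and rho = -0.817 (permutation p = 0.011, adjusted 0.128), so the call by r depended on that library.

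The labels allow 1 comparison within the leaf plants, the 3 from Mikro Papingo against the 7 from 7 other places. Plants from the same place were not shown to be more alike. The mean correlation was 0.928 within the 3 and 0.906 over all other pairs, a difference of 0.022, and 32 of the 120 choices of 3 libraries lay as far from 0 (two-sided exact permutation p = 0.267, with 0.00833 the smallest value 120 choices allow). Cg_leaf 1 and 10 were the closest of all 45 pairs, Cg_leaf 5 and 10 (0.922) ranked 12, and Cg_leaf 1 and 5 (0.907) ranked 29, below the median pair.

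By gene, limma with Benjamini-Hochberg adjustment called 1 of 14823 genes (0.00675%) at the 0.05 threshold, and 671 (4.53%) had an unadjusted p below 0.05. The groups did not overlap in 249 genes (1.68%). With 3 against 7 libraries some genes separate by chance, and no chance share was computed, so this count is a description. The gene that passed was Carubv10021256m (scaffold 2, 12661433 to 12662350), at 24.6, 11.5 and 16.7 FPKM in Cg_leaf 1, 5 and 10. Of the other 7 plants, Cg_leaf 8 stood at 2.72 FPKM and 6 were listed at 0. It was higher in all 3 Mikro Papingo plants than in every other plant, with a limma log2 difference of 3.88 (SE 0.44) and an adjusted p of 0.0245. It reached 1 FPKM in exactly 4 libraries, the 3 Mikro Papingo plants and Cg_leaf 8. The rule would not have included it without the group in which it was high, nor without Cg_leaf 8. Without the filter limma called 0 genes, with 791 at an unadjusted p below 0.05, and the adjusted p of this gene was 0.0517. Over all genes the median difference was -0.17 and 28.2% of genes were higher in Mikro Papingo. After upper quartile scaling these were -0.04 and 45%, and after quantile normalization 0.02 and 53.1%. Both scalings bring the libraries to a common level, so that balance depends on the scale used. The call did not survive leaving out any of the 6 other libraries without which the gene could still be tested.

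Some genes were present in some plants and listed at 0 in others. Of the 14823 genes, 480 were listed at 0 in at least 1 library, and 342 of these (2.31%) reached 5 FPKM in another. They were listed at 0 in exactly 1 library for 154 genes, in 2 for 80 and in 6, the most the inclusion rule allows, for 15. Their median highest value was 14.5 FPKM, and 28 exceeded 100 FPKM somewhere. Each library was listed at 0 for 30 (Cg_leaf 7) to 111 (Cg_leaf 3) of the 342. Relative depth was 1 in Cg_leaf 7, the reference, and 0.745 in Cg_leaf 3. Cg_leaf 9, with the lowest relative depth (0.493), was listed at 0 for 85, and the relation to depth was not tested. In 29 of the 342 genes every library was either at 0 or at 5 FPKM or above.

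Examples of genes listed at 0 in 6 libraries were Carubv10028443m (scaffold 8, 4486477 to 4487537), at 251 FPKM in Cg_leaf 6, 47.1 in Cg_leaf 3, 4.51 in Cg_leaf 4 and 1.44 in Cg_leaf 2, and Carubv10007872m (scaffold 7, 12136429 to 12137932), at 9.79 to 50.4 FPKM in Cg_leaf 1, 7, 9 and 10. The latter has values above 9 FPKM or exactly 0 and nothing between. Carubv10018362m (scaffold 5, 12576039 to 12579945) had 6 libraries at 31.6 to 62.3 FPKM and 4 at 0 (Cg_leaf 1, 4, 5 and 6). Its row shares coordinates with another row. Such sharing was less frequent among the 342 (22 genes, 6.43%) than among all members (15.2%), a description without a test.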

How the data were processed

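Per the labels' protocols, RNA was extracted with a Qiagen kit and sequenced as Illumina paired-end mRNA libraries. The authors deposited 1 table of FPKM with 18 library columns; all columns matched a labelled library, and the 8 bud columns were not used. Bowtie, TopHat and Cufflinks are listed, per the submitters' processing notes, but their versions, settings and scaling were not given in the sources used here. Per the file headers, positions refer to the CR v1 JGI build. Of the 19350 rows, 2496 share coordinates with another row.

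Values were analysed as log2(FPKM + 1), which understates changes of low genes. Depth is unknown; relative depth was read from the modal ratio of values below 0.3 FPKM (23.9% to 27.0% of 316 to 468 genes in the modal bin). Components used centred, unscaled genes. Place of origin was tested with limma 3.58.1 in R 4.3.3 (empirical Bayes, mean trend, Benjamini-Hochberg, threshold 0.05), and similarity by exact permutation. The limma fit was checked on simulated independent normal values with 200 changed genes of SD below 1. It recovered 18% of genes changed by 1 on the log2 scale and 82% of those changed by 2, with 6 false among 106 calls. Few calls therefore do not show that few genes differ. P-values measure the spread between these plants. Genes were named by mean FPKM, by SD at a mean of at least 5 FPKM, by weight on components 1 to 3, by the test of origin and by the number of libraries at 0. Fixed gene lists and cell type markers could not be used, since the table pairs no ID with a name. The genes, lists and tests were chosen with earlier results of these data known. Alternatives covered the pseudocount, the filter, scaling, rows sharing coordinates, ranks, library weights and leaving out each library.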

Additional observations from a re-analysis of the deposited data

Results flagged for a closer look

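Over 71 sets of 10 libraries (17 library measures and 54 genes), 22 had an extreme library whose gap to the next passed Dixon's 95% critical value. The rate of about 1 in 20 by chance holds for normally distributed values. Genes were searched as FPKM without logarithm, which widens gaps at the high end, and all 19 flags of genes were highest libraries. The flags of genes thus have no known chance rate and are a description. Many of the genes were picked for their large spread, which makes such gaps more frequent. Of the library measures, relative depth was lowest in Cg_leaf 9 at 0.493, with the next at 0.745. Cg_leaf 4 had the lowest mean correlation with the other libraries (0.868, next 0.904) and the most genes at least 4-fold above the others (649, next 250).

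Cg_leaf 4 also stood alone for Carubv10017634m at 2059 FPKM, Carubv10010605m at 105, and Carubv10028183m, Carubv10028699m and Carubv10027002m, a run on scaffold 8, at 23.3, 74.1 and 178. Cg_leaf 3 stood alone for the other run on scaffold 8, with Carubv10027416m at 117 FPKM, Carubv10027471m at 118 and Carubv10027472m at 1264 (next 24.8). Cg_leaf 5 was alone for Carubv10001036m at 42.2 FPKM and Carubv10001040m at 11.3. Cg_leaf 6 was alone for Carubv10002340m at 1145 FPKM and Carubv10028443m at 251.

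Among the abundant genes, Cg_leaf 9 stood apart for Carubv10012759m and Carubv10012760m, identical rows at 79207 FPKM, and for Carubv10021662m at 1286. Cg_leaf 10 stood apart for Carubv10014903m at 94726 FPKM and Carubv10024304m at 60504, Cg_leaf 7 for Carubv10021237m at 36191 and Cg_leaf 1 for Carubv10021016m at 101201.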

How the results depend on the processing

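Of 125 values of 14 results under other settings, 102 stayed close to the reported value, 23 moved and 0 reversed. The settings include leaving out the F1 plant, Cg_leaf 6, but no other library. Close meant within 1.5 times for a count, and otherwise within a spread over leaving out each library. For the top 10 share it meant within the SD between libraries. For the Mikro Papingo difference in r it meant the same sign and a p on the same side of the threshold. Only that difference could be labelled reversed, so the 0 carries no information on the other results. Some values could not move, so the 102 overstates stability. The 14823 genes were fixed under other pseudocounts and scalings, and the 342 genes at 0 in some plants under other pseudocounts. The top 10 share was computed without pseudocount, filter or scaling and stayed at 19.6% when these changed. The pseudocount moved the median SD to 0.521 (0.1) and 0.346 (5), and the share of genes with an SD above 1 to 16.3% and 3.71%; with 1 FPKM asked in all 10 libraries the latter was 6.28%. The median pairwise r was 0.885 and 0.926 with those pseudocounts, 0.940 without a filter and 0.890 with a filter of 5 FPKM. The adjacent correlation was 0.042 after upper quartile and 0.0423 after quantile normalization. Genes at 0 in some plants and at 5 FPKM in others numbered 531 without a filter, 131 with 5 FPKM and 0 with 1 FPKM in all 10 libraries, by construction. Long runs numbered 4 with a pseudocount of 5, 4 with the filter of 5 FPKM and 3 with 1 FPKM in all libraries.

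For Mikro Papingo, limma called 0 genes with a pseudocount of 0.1 (716 at an unadjusted p below 0.05), without a filter (0, 791), with 5 FPKM (0, 545), with 1 FPKM in all libraries (0, 573) and without the F1 plant (0, 754). With library weights it called 1831, 244 higher and 1587 lower; Cg_leaf 10 then had a weight of 7.90 and Cg_leaf 5 of 0.406. The adjusted p of Carubv10021256m ran from 0.000211 to 0.362 over 14 alternatives and was above 0.05 in 8 of them, always higher in Mikro Papingo. Under the filters of 5 FPKM and of 1 FPKM in all libraries this gene was not tested. Nor was it tested without Cg_leaf 1, 5, 8 or 10. Its call could not recur in those settings.

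Leaving out each library in turn gave 14650 to 14755 genes, a median SD of 0.430 (without Cg_leaf 4) to 0.475, and 7.71% to 9.91% of genes with an SD above 1. Components were computed anew each time, and the first was a changed axis without Cg_leaf 4. The first held 25.4% (without Cg_leaf 4) to 31.9% of variance and the second 15.3% to 19.3%. Where Cg_leaf 4 was kept, it gave 47.6% to 59.6% of the first. The median r was 0.907 to 0.916, the top 10 share 18.7% to 20.4%, genes at 0 in some plants 281 to 307, the adjacent correlation 0.0994 to 0.152, long runs 6 to 10 and relations past the threshold 0 to 1. The Mikro Papingo difference in r was 0.00337 (without Cg_leaf 10) to 0.0499 (without Cg_leaf 5), with exact permutation p of 0.0833 to 0.833, and limma called 0 to 0 genes (335 to 1400 at an unadjusted p below 0.05). No paired analysis was possible because the leaf plants carry no number shared with a compared group. Without read counts, the precision of low genes is unknown.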

Other observations

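Of the 4527 rows below the inclusion rule, 1201 were listed at 0 in all 10 leaf libraries, yet 102 reached 10 FPKM in at least 1 library and 16 reached 50. The highest library of those 102 was Cg_leaf 7 or Cg_leaf 9 for 15 rows each, and Cg_leaf 10 for 6. Carubv10006182m (scaffold 7, 14445867 to 14447223) stood at 181 FPKM in Cg_leaf 4 and 8.18 in Cg_leaf 2 and was listed at 0 in the other 8 libraries. Carubv10015051m (scaffold 3, 14753425 to 14754597) stood at 116 FPKM in Cg_leaf 7 and was listed at 0 in the other 9. Carubv10023871m (scaffold 4, 6572159 to 6576696) stood at 147 FPKM in Cg_leaf 9 and at 1.97 or less in the others. These rows were chosen after their values were seen.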
